A study of Homo sapiens with 4 samples.

Results

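The comparison is that of MG cells with vehicle against non-MG cells with vehicle, which asks how the expression profiles of a motile and an immotile subpopulation of one cell line differ before any drug. HCT116 is an established cell line from a human colorectal carcinoma. The MG cells are its subpopulation that crossed the membrane of a migration chamber over repeated rounds of selection, and the non-MG cells are those that did not cross it. Both were kept with vehicle for 48 h. The series holds 2 further arrays, of the same subpopulations after 5 µM 5-azacytidine, an inhibitor of DNA methyltransferases, for 48 h. The labels do not say how many cultures or rounds of passage stand behind an array. Each of the 4 conditions has 1 array, so no difference between the cell types has a replicate and none was tested. The members are the genes whose probes lay well above background on both vehicle arrays, 13035 of the 21611 genes with a matched probe. Another 427 genes were well above background on the MG array and not on the non-MG array, 448 the other way round, 4 by different probes, and 7697 on neither.

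Cells that migrate alone from an epithelium tend to give up junctions between neighbours and to take up mesenchymal genes, a change called epithelial-mesenchymal transition. Cultured cells also differ in how many of them are copying their DNA, which is read from the genes of the replication fork and of histones, and in how much oxygen and growth factor signal they receive. Low oxygen stabilises the transcription factor HIF1A, which switches on glycolytic enzymes and a set of other targets, and growth factors acting through EGFR and the MAP kinases switch on immediate-early genes such as EGR1 and FOS.

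RNA of 400 ng per array was hybridised in 1 colour on 1 slide, with slide row 1 holding the non-MG and row 2 the MG cells, so position and cell type cannot be told apart. The 75th percentile of the signal, by which each array was scaled, was 87.0 for the non-MG and 98.7 for the MG cells with vehicle, and no spot was saturated. Levels below are signals as multiples of that percentile, ratios are log2 of MG over non-MG cells, and the error after ± is the spot error, which comes from the SD between repeated spots on the same array and leaves out cultures, labelling and hybridisation. Its median over genes was 0.10. Of the 10 marker genes of colon epithelium, 8 were well above background on both arrays, EPCAM at 100.5 and KRT18 at 179.6 in the MG cells among them, and VIL1 and GPA33 were on neither. The same held for 1 of 10 fibroblast markers, 3 of 10 leukocyte markers, 1 of 8 endothelial and 1 of 5 erythroid markers. The defining fibroblast genes other than COL1A1 were not well above background on either array.

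Among the 13035 genes, 772 (5.92%) stood higher in the MG cells past 1.5-fold and 1000 (7.67%) lower, and 86.4% lay within that range. The median ratio was 0.01 and the quartiles were -0.24 and 0.25. Past 2-fold there were 107 higher and 183 lower genes, and past 4-fold 11 and 8. Of the calls, 49 had a ratio under 2 spot errors. The share of lower genes depended on brightness. It was 13.7% among genes with a mean log2 intensity below 5, 9.08% from 5 to 8 and 4.79% from 8 on, while the share of higher genes was 6.63%, 6.48% and 5.20%. Centring on each array's median in place of the 75th percentile moved the median over all genes up by 0.20 and turned the split to 1893 higher and 460 lower genes, and normexp correction gave 416 and 267. Ratios are therefore read against the median of all genes.

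The gene lists set apart a handful of programmes. Past 1.5-fold, 32 of 50 DNA replication, 30 of 53 histone and 12 of 47 mitosis genes were higher in the MG cells, against 5.92% of all genes. Lower were 24 of 43 hypoxia and glycolysis, 11 of 40 epithelial and 11 of 40 MAP kinase signalling genes, against 7.67% of all genes. In 2 housekeeping lists, those of ribosomal proteins and oxidative phosphorylation, none of 46 and none of 35 measured genes passed 1.5-fold in either direction, with median ratios of -0.11 and 0.08. The 2 medians lay on either side of 0. That of the ribosomal proteins became 0.09 with median centring, where the median of all genes was 0.21.

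**Figure D1:**
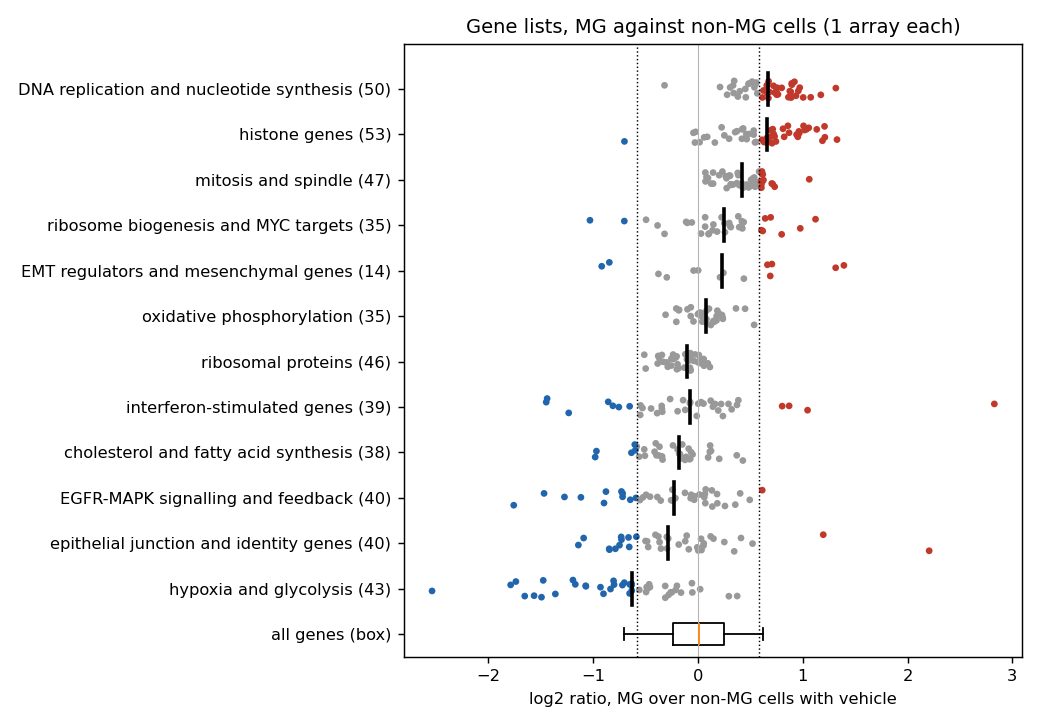
Log2 ratios between MG and non-MG cells, vehicle arrays, for 12 gene lists, 1 point a gene (red, higher past 1.5-fold; blue, lower past 1.5-fold; grey, within), with the median of each list as a black bar and the number of measured genes in brackets. The box shows the quartiles of all 13035 genes with whiskers at the 5th and 95th percentiles; the replication and histone medians (0.67 and 0.66) lie right of the upper dotted line at 1.5-fold and the hypoxia median (-0.63) left of the lower one.

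DNA replication was the list with the largest share of members past the threshold. All 50 genes were measured, 32 were higher past 1.5-fold and none was lower, against 5.92% higher among all genes, and the median ratio was 0.67. Of the genes, 49 had a ratio above 0, and CAD, the enzyme that starts pyrimidine synthesis, was the exception at -0.32. Origin licensing and helicase genes had 12 of 17 higher, the polymerase and clamp group 8 of 15, nucleotide synthesis 5 of 8 and the E2F and cyclin group 7 of 10. CDC25A, the phosphatase that frees the cyclin-dependent kinases for S phase, had a level of 1.47 in the non-MG and 3.66 in the MG cells, a ratio of 1.31 ± 0.10. CDC6, which loads the helicase onto origins, had levels of 0.142 and 0.319 and a ratio of 1.17 ± 0.39, from a dim probe. ORC6, a subunit of the origin recognition complex, had levels of 1.40 and 2.95 and a ratio of 1.08 ± 0.03. The flap endonuclease FEN1 had a level of 3.06 in the non-MG and 6.14 in the MG cells, and GINS2 of the replicative helicase had a ratio of 0.97 ± 0.03. On the arrays of treated cells the same list had a median ratio of 0.52.

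Of the 18 members within the threshold, CAD was the only one below 0. The ratio was 0.33 for MCM5 and 0.45 for MCM7, both subunits of the helicase ring, 0.46 for RRM1 of ribonucleotide reductase, 0.31 for the thymidine kinase TK1 and 0.34 for the maintenance methyltransferase DNMT1. In contrast, the E2F target and DNMT1 partner UHRF1 was at 0.66. The list of DNA methylation genes as a whole had 1 of 27 genes (3.70%) higher and 1 lower, against 5.92% and 7.67% of all genes. Its median was 0.00. The lower gene was ZBTB33, a methyl-CpG binding protein, with a ratio of -1.14 here and 0.29 on the treated arrays.

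E2F factors bind the letters TTTCGCGC or TTTGGCGC. A promoter from RefSeq (GRCh38.p14, 250 bases before to 50 after the start) was matched for 28 of the 32 higher genes, and 10 held one of these 8-letter words on either strand, as did 4 of 13 replication genes within 1.5-fold. Among the 10258 measured genes with a promoter the share was 2.07%, and among all 27305 promoters 1.18%. The word was thus frequent in the list whether or not a gene passed the threshold. The promoters of CDC25A (chr3:48188368-48188667, minus strand) and CDC6 (chr17:40287629-40287928, plus strand) are shown because these were the holders with the largest ratios, with the word in capitals, at position -44 and at position 8 from the start.
CDC25A: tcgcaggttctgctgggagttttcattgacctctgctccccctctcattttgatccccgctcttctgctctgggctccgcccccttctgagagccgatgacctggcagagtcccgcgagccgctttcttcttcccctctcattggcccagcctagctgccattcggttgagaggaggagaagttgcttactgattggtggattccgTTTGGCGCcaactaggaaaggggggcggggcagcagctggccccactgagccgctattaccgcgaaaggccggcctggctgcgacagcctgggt
CDC6: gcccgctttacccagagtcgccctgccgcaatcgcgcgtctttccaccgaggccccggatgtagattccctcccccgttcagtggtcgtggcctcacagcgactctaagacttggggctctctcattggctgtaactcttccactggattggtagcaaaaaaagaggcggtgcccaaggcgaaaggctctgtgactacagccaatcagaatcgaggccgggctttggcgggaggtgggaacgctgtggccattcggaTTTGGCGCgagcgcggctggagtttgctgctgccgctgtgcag

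Histone genes were measured with 53 of 59 listed members. Of these, 30 were higher past 1.5-fold, against 5.92% of all genes, and 1 was lower, with a median of 0.66. By class, 6 of 10 H3 genes, 10 of 13 H2A, 9 of 14 H2B, 3 of 11 H4 and 2 of 5 H1 genes were higher. Genes of these clusters encode nearly identical proteins and their probes may share transcripts, so a ratio belongs to the probe rather than surely to 1 gene. H3C4 had a level of 26.4 in the non-MG and 66.1 in the MG cells, a ratio of 1.33 ± 0.08. Levels of H2AC4 were 2.82 and 6.50 (1.21 ± 0.10), and those of H3C7 10.2 and 23.3 (1.19 ± 0.09). Several histones made throughout the cell cycle stayed within the threshold, H3-3A at -0.04, H3-3B at 0.37, H2AZ1 at 0.46 and H2AJ at 0.02. H1-5 passed background in the MG cells alone, where it was at least 4.17-fold higher.

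Of the 3 cell cycle lists, the histone list was the one whose median was much smaller in the other pair of arrays. After 5-azacytidine its median ratio was 0.10, while the replication list kept 0.52 and the mitosis list 0.44, from 0.42 with vehicle. H3C4 had a ratio of 0.26 and H2AC4 of 0.46 there. Whether the pairs differ beyond array error could not be tested with 1 array each.

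Replication-dependent histone promoters carry a CCAAT box and a TATA box. CCAAT was found on either strand in 26 of 27 higher histone genes with a promoter and in 14 of 21 within the threshold, against 37.1% of measured genes and 35.7% of all promoters. TATAAA was in 22 of 27 and 12 of 21, against 5.995% and 11.95%. The genes within the threshold include histones made throughout the cell cycle, so histone class and call are mixed in these counts. The words do not overlap in the promoter of H2AC4 (chr6:26033569-26033868, minus strand), shown as the highest member with both words, with each match on either strand in capitals and TATAAA at position -30.
H2AC4: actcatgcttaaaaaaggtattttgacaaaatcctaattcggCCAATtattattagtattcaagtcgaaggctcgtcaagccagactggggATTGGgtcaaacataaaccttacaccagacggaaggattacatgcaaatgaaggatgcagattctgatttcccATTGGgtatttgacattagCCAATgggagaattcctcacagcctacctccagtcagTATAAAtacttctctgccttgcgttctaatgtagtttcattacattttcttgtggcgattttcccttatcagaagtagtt

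Mitosis genes were shifted less and more evenly. All 47 were measured and all 47 had a ratio above 0, with a median of 0.42. Past 1.5-fold 12 (25.5%) were higher, against 5.92% of all genes, and none was lower. With median centring the number past the threshold was 26, where 1893 of all 13035 genes were higher. CENPE, a kinesin of the kinetochore, had levels of 2.22 in the non-MG and 4.63 in the MG cells (1.06 ± 0.03). The checkpoint gene MAD2L1 stood at 9.76 and 16.2 (0.73 ± 0.09), and MYBL2, a factor that drives these genes, at 1.81 and 2.95 (0.70 ± 0.10). In contrast CDK1 was at 0.08, PLK1 at 0.27, the spindle checkpoint kinase BUB1 at 0.31 and MKI67, the usual marker of cycling cells, at 0.30. None of the 7 cyclosome-related genes passed the threshold. A larger share of cells in a phase and more RNA per cell cannot be told apart in such bulk samples. The study measured growth of both subpopulations and reported equal rates, and growth is not measured by these arrays.

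**Figure D2:**
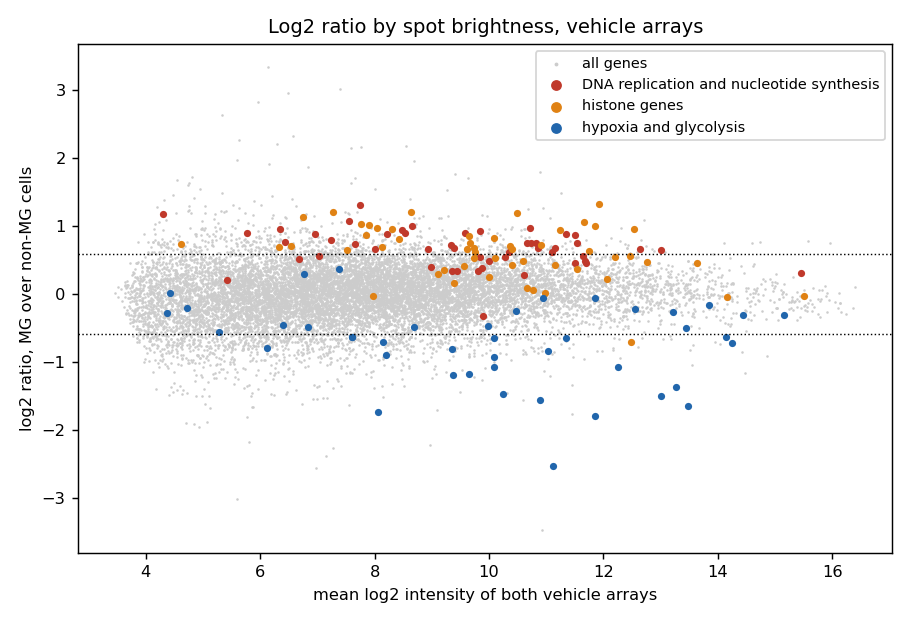
Log2 ratio between MG and non-MG cells, vehicle arrays (y) against the mean log2 intensity of both arrays (x) for all 13035 genes, with replication, histone and hypoxia genes in colour and 1.5-fold as dotted lines. Of the points, 49 of 50 replication and 49 of 53 histone genes lie above 0, compared with 3 of 43 hypoxia genes.

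Hypoxia and glycolysis genes formed the largest lower group. Of 43 measured genes, 24 were lower past 1.5-fold and none was higher, against 7.67% lower among all genes, and the median ratio was -0.63. ANKRD37, an ankyrin-repeat target of HIF1A, had a level of 57.8 in the non-MG and 9.94 in the MG cells, a ratio of -2.54 ± 0.09. ANGPTL4, a secreted lipoprotein lipase inhibitor, had 74.2 and 21.5 (-1.79 ± 0.08). PDK1, the kinase that keeps pyruvate out of the mitochondria, had 5.24 and 1.57 (-1.74 ± 0.11). Each of these 3 genes stood more than 3-fold apart between the arrays. NDRG1, a stress-induced gene of low oxygen, went from 219 in the non-MG to 69.6 in the MG cells (-1.65 ± 0.08), and hexokinase HK2 from 35.38 to 11.96 (-1.56 ± 0.08).

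By role, 13 of 17 other targets, 9 of 20 glycolysis and glucose uptake genes and 2 of 6 oxygen sensing genes were lower. The sensors did not move as one. EGLN1, the main prolyl hydroxylase that marks HIF1A for decay and itself a target, was at -0.93 and EPAS1, its sister factor, at -0.65, whereas HIF1A had a ratio of 0.29, EGLN2 of 0.37 and VHL, the ligase subunit, of -0.06. The abundant enzymes of lower glycolysis were shifted less, GAPDH by -0.31, ENO1 by -0.31, PKM by -0.26, TPI1 by -0.16 and PGAM1 by -0.05, and LDHA by -0.50. CA9, the carbonic anhydrase of hypoxic cells, passed background in the non-MG cells alone, at least 1.64-fold higher there. On the treated arrays the list had a median of -0.52, with ANKRD37 at -2.96, ANGPTL4 at -1.69 and PDK1 at -0.82.

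**Figure D3:**
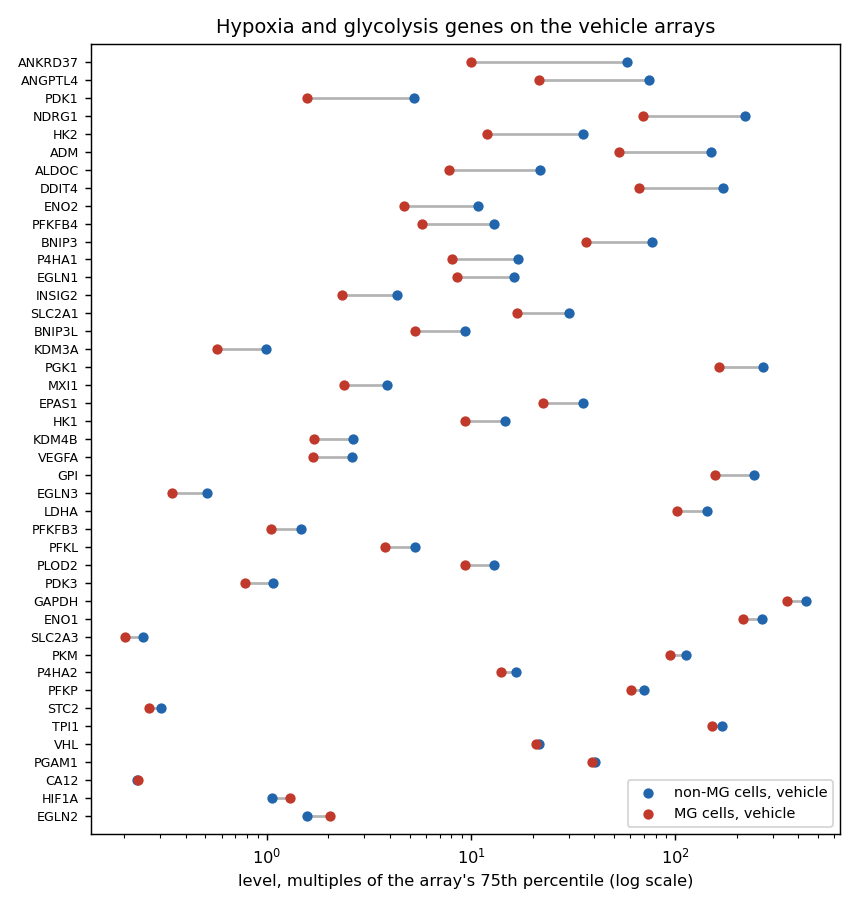
Level of each of the 43 measured hypoxia and glycolysis genes on the non-MG (blue) and MG (red) vehicle arrays, as multiples of the array's 75th percentile on a log axis, ordered by ratio from ANKRD37 (-2.54) to EGLN2 (0.37). For all but the last 3 genes the MG point lies left of the non-MG point.

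HIF1A binds the core ACGTG. A promoter was matched for 21 of the 24 lower genes, and 13 held the core on either strand, as did 5 of 17 genes of the list within the threshold, against 26.9% of measured genes and 21.6% of all promoters. The promoters of ANKRD37 (chr4:185396591-185396890, plus strand) and ANGPTL4 (chr19:8363905-8364204, plus strand) are shown as those of the lowest genes that hold it. Capitals mark each match on either strand. ANKRD37 had 3 matches, of which 2 overlap in a palindrome that starts at position -162 and the third starts at -143, and ANGPTL4 had 1 at position -234. The E2F and ACGTG words and the histone boxes were chosen after the values of the lists were seen, and a match is a run of letters, not a bound site.
ANKRD37: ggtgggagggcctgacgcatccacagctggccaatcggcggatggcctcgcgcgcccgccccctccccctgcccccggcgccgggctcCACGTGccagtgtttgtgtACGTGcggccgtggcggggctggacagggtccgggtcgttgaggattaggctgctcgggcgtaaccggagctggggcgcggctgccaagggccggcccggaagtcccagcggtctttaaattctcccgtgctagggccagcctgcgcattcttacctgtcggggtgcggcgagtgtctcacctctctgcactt
ANGPTL4: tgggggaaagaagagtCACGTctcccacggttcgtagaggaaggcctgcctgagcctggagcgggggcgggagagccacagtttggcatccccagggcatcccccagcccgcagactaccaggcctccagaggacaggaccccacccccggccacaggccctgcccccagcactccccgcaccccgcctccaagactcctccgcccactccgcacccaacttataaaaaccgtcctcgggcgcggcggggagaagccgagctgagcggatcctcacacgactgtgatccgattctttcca

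Of 40 measured genes of growth factor signalling, 11 (27.5%) were lower past 1.5-fold, against 7.67% of all genes. Higher was 1 gene (2.5%, against 5.92%), and 28 lay within the threshold, with a median of -0.23. By role, 7 of 20 immediate targets and feedback genes, 1 of 3 ligands, 2 of 11 receptors and 1 of 6 kinases were lower. EGR1 had a level of 55.7 in the non-MG and 16.5 in the MG cells (-1.76 ± 0.08). JUNB had 1.57 and 0.568 (-1.47 ± 0.17) and FOS 2.42 and 0.999 (-1.27 ± 0.12), both parts of the AP-1 factor. DUSP5, a phosphatase that turns nuclear ERK off, had 11.8 and 5.43 (-1.12 ± 0.09), and EGFR itself 1.11 and 0.595 (-0.90 ± 0.11). On the treated arrays EGR1 and FOS had ratios of -1.81 and -1.27.

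Other feedback genes of the same pathway lay near or above 0. DUSP6, the ERK phosphatase, had a ratio of 0.07, SPRY2 of 0.49 and DUSP4 of 0.14, and the AP-1 gene FOSL1 was the higher member at 0.61 ± 0.10. The ligand EREG was at 0.07 and the receptor MET at 0.26. With normexp correction 7 members were lower, where 267 of all 13035 genes were. With median centring 6 were lower, where 460 of all genes were.

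**Figure D4:**
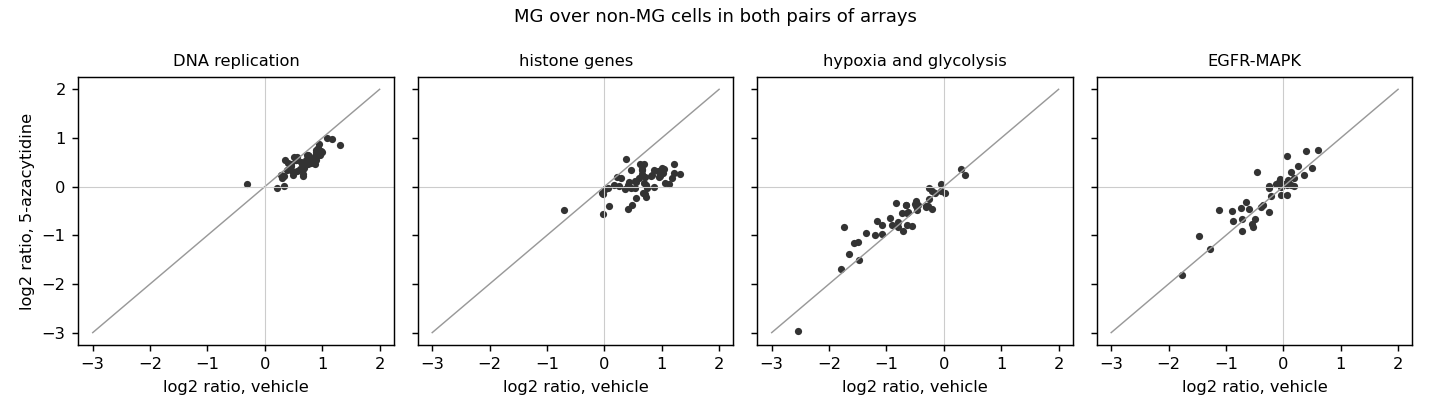
Log2 ratio between MG and non-MG cells on the vehicle arrays (x) and after 5-azacytidine (y) for the genes of 4 lists, 1 point a gene, with the line of equal ratios. Replication, hypoxia and MAP kinase genes lie along the line, and histone genes lie below it, with a median of 0.66 on x and 0.10 on y.

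Epithelial junction and identity genes had 11 of 40 members (27.5%) lower and 2 (5%) higher past 1.5-fold, against 7.67% and 5.92% of all genes. Their median was -0.29. The lower genes were those of tight junctions (4 of 11), adherens junctions (3 of 7) and the cell surface (3 of 8), with ELF3 among the regulators, and none of the 5 desmosome genes passed the threshold. TJP3, a scaffold of tight junctions, had a level of 3.03 in the non-MG and 1.37 in the MG cells (-1.14 ± 0.11), and the epithelial factor ELF3 15.3 and 7.19 (-1.09 ± 0.09). The tight junction genes CLDN3 (25.6 and 14.2) and CLDN4 (234 and 141) were at -0.85 and -0.73. CDH1, the gene of E-cadherin, had 11.2 and 7.07 (-0.66 ± 0.03), and fell short of the threshold with median centring (-0.47) and with normexp correction (-0.55). The study reported CDH1 as unchanged, both in its own processing of the arrays and by qPCR. The higher members were CEACAM1, an adhesion receptor, with 0.395 and 1.82 (2.21 ± 0.15), and OVOL2, a repressor of mesenchymal genes, with 0.378 and 0.865 (1.19 ± 0.15). EPCAM (0.05), CTNNB1 (0.12), TJP1 (-0.01) and DSP (0.03) had nearly equal levels on both arrays. With median centring 5 members were lower, where 460 of all 13035 genes were. With normexp correction 7 were lower, where 267 of all genes were.

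Mesenchymal genes were mostly not measurable, with 18 of 32 on neither array. Of the 14 that were, 5 (35.7%) were higher and 2 (14.3%) lower, against 5.92% and 7.67% of all genes. The median was 0.23, which became -0.02 with no filter. VIM, the intermediate filament of mesenchymal cells, had a level of 0.624 in the non-MG and 1.64 in the MG cells (1.39 ± 0.15). The repressor ZEB1 had 0.316 and 0.785 (1.31 ± 0.21), from the only one of its probes well above background on both arrays, and with normexp correction it was at 0.49, short of the threshold. S100A4, a calcium-binding protein of motile cells, had 57.7 and 94.0 (0.70 ± 0.08), the receptor AXL 5.61 and 9.04 (0.69 ± 0.10) and the matrix protein SPARC 5.75 and 9.09 (0.66 ± 0.10). COL1A1 (-0.92) and ACTA2 (-0.85) were lower. SNAI1 (-0.38) and TWIST1 (-0.30) stayed within the threshold. By qPCR the study reported VIM and ZEB1 as higher in the MG cells and CDH1 and SNAI1 as unchanged. From its arrays it listed TWIST1 as up-regulated.

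**Figure D5:**
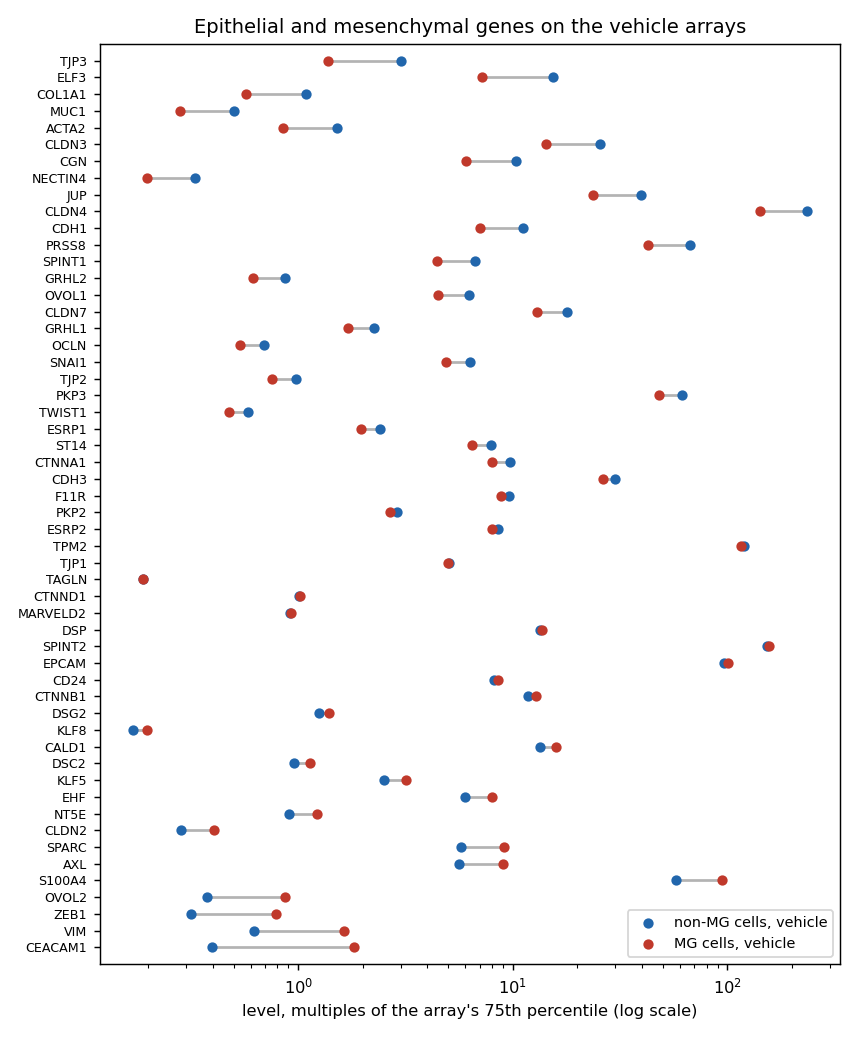
Level of each measured epithelial and mesenchymal gene on the non-MG (blue) and MG (red) vehicle arrays, as multiples of the array's 75th percentile on a log axis, ordered by ratio. TJP3 (-1.14) is at the top, genes with nearly equal levels such as TJP1 are in the middle, and VIM (1.39) and CEACAM1 (2.21) are at the bottom.

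Among genes of the migration machinery, the actin list was near the shares of all genes (5.92% higher and 7.67% lower) and the adhesion, matrix and protease lists had more calls. Of 62 genes on the list of actin dynamics, 5 were higher and 2 lower, with a median of 0.03. The higher ones lay between 0.60 for the formin DIAPH3 and 0.64 for the kinase ROCK2, with LIMK2, CFL2 and ARHGDIB between them, and the lower ones were ARHGEF28 (-0.65) and RHOV (-0.59). Of 32 integrin and focal adhesion genes 5 (15.6%) were higher and 2 lower. TM4SF1, a tetraspan protein of the surface, had a level of 0.244 in the non-MG and 1.18 in the MG cells (2.27 ± 0.21), ITGB8 had 0.289 and 0.598 (1.05 ± 0.24), and TSPAN1 14.05 and 6.03 (-1.22 ± 0.09). Matrix genes had 5 of 25 (20%) lower and 1 higher, the lower ones being COL18A1, LAMB3, LAMB2, MFGE8 and HSPG2 and the higher one THBS1 (0.66). Of 28 proteases and inhibitors, 4 (14.3%) were higher, led by KLK6 (1.03), and 5 (17.9%) lower, led by MMP25 (-1.37), with TIMP1 at -0.72.

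Interferon-stimulated genes went both ways, with 4 of 39 (10.3%) higher and 7 (17.9%) lower, against 5.92% and 7.67% of all genes. Their median of -0.08 became 0.12 with median centring, where the median of all genes was 0.21. The higher genes were APOBEC3G, with a level of 0.253 in the non-MG and 1.80 in the MG cells (2.83 ± 0.21), APOBEC3F (1.05 ± 0.07), APOBEC3C (0.87 ± 0.03) and APOBEC3B (0.80 ± 0.10), all cytidine deaminases of 1 gene cluster with related sequences. Membrane-bound restriction factors were on the other side, IFITM1 with 12.8 and 4.69 (-1.45 ± 0.07) and BST2 with 1.57 and 0.577 (-1.44 ± 0.12), along with the regulator IRF7 (-1.23 ± 0.10). Antigen presentation had 2 of 28 (7.14%) lower, near the share of all genes, and none higher. The list of unfolded protein and amino acid stress had 6 of 36 genes (16.7%) higher and 2 (5.56%) lower. Its amino acid genes had 4 of 16 higher and 2 lower, and none of 11 chaperones passed. The cystine transporter SLC7A11 had 2.59 and 6.85 (1.40 ± 0.10), the glutathione-degrading CHAC1 1.32 and 3.02 (1.19 ± 0.10) and the serine synthesis gene PSAT1 3.22 and 6.99 (1.12 ± 0.09), while DDIT4 was at -1.36 ± 0.03. In the ribosome biogenesis and MYC list 7 of 35 (20%) were higher, among them MRTO4 (0.98) and the transferrin receptor TFRC (1.12). The 2 lower genes (5.71%) were the MYC antagonists MXD1 (-1.03) and MXI1 (-0.70).

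Lists of other pathways are read against the same shares of 5.92% and 7.67%. TGF-beta and BMP genes had 3 of 22 (13.6%) lower, with the inhibitor of differentiation ID2 at a level of 22.7 in the non-MG and 8.29 in the MG cells (-1.46 ± 0.06), SMAD3 (-0.88) and NOG (-0.60). Wnt genes had 4 of 33 (12.1%) higher, among them DCLK1 (2.96) and the feedback targets SP5 (1.20) and AXIN2 (0.81), and 2 lower. Of 12 measured Wnt targets 3 were higher and 1 lower, with a median of -0.03. None of 6 measured Wnt inhibitors passed the threshold, with a median of -0.07. Notch genes had 3 of 15 lower and JAG1 higher (0.92). Of the 33 p53 targets 4 were higher, led by PLK2 (1.77), and 1 lower. Of 38 cholesterol and fatty acid genes 5 were lower and none higher. Among annexins and S100 proteins 5 of 21 (23.8%) were higher, led by ANXA8L1 (2.63) and ANXA3 (1.79), and 2 lower, led by ANXA10 (-3.01).

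The genes with the largest ratios were single genes of varied function. The highest was LCN2, the siderophore-binding lipocalin, with a level of 0.239 in the non-MG and 2.42 in the MG cells (3.34 ± 0.21). MIA, a small secreted protein first known from melanoma, had 0.635 and 5.14 (3.02 ± 0.14), and DCLK1, a kinase that marks tuft cells of the gut, 0.345 and 2.68 (2.96 ± 0.21). With all probes of DCLK1, well above background or not, its ratio was 1.05. These were followed by APOBEC3G, ANXA8L1, SEMA6B (2.32), TM4SF1, CEACAM1, the homeobox gene HOXB8 (2.18), SNORA70F (2.16), the alkaline phosphatase ALPG (2.15) and the corepressor NRIP1 (1.98). ANXA8L1 and ALPG each have a near-identical paralog, so their probes may read either. With no filter on background SEMA6B was at 0.94. With normexp correction LCN2 was at 1.62, ANXA8L1 at 1.11 and TM4SF1 at 0.90.

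The lowest was DHRS2, a short-chain dehydrogenase, with a level of 69.7 in the non-MG and 6.30 in the MG cells (-3.47 ± 0.09). ANXA10, an annexin, had 1.47 and 0.183 (-3.01 ± 0.22), and VASN, a membrane protein that traps TGF-beta, 3.30 and 0.559 (-2.56 ± 0.16). After ANKRD37 came the arrestin-related ARRDC4 (-2.39), ZBTB20 (-2.26), LINC00659 (-2.22 ± 0.05, over 5 probes), BTN2A2 (-2.18), ZNF709 (-1.95), PRAM1 (-1.91), BEX5 (-1.90) and FOSB (-1.88), a further AP-1 gene. With normexp correction ANXA10 was at -1.30 and BEX5 at -0.57, short of the threshold, and with no filter ZBTB20 was at -0.94.

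Apart from NRIP1 with 2 probes and LINC00659, each of these genes rests on 1 spot an array, and the treated arrays give a second reading of the same probes in other RNA. There, 9 of the 12 highest and 8 of the 12 lowest genes were again past 1.5-fold on the same side. The ratio of MIA was 3.02 with both, LCN2 was at 2.25, DCLK1 at 2.62, DHRS2 at -2.80 and ANXA10 at -2.45. In contrast SEMA6B was at -0.19 there and SNORA70F at 0.00, VASN was at -0.43, ZBTB20 at 0.04, BTN2A2 at -0.41 and ZNF709 at 0.30, and ALPG was just short of the threshold at 0.58. Over all genes, 370 of the 758 higher genes measured on the treated arrays passed 1.5-fold again on the same side, as did 427 of the 955 lower genes, where 6.12% and 5.94% of the 12752 genes measured there were called.

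Genes seen on 1 vehicle array alone differed by side in whether the treated arrays showed them again. For the 8 with the largest bounds in the MG cells the probe was not well above background on either treated array. Each of these 8 rests on 1 spot an array. The MG level of LINC01255 was at least 23.8-fold the non-MG level (2.74 and 0.0929), that of OR2Y1 at least 22.5-fold and that of OR10A7 at least 17.9-fold, followed by ZNF660, LINC01574, ERVK13-1, SYT4 and LINC01094 with bounds from 12.4 down to 8.46. None of the 8 was thus seen in the treated MG cells. Of the 8 genes seen in the non-MG cells alone, all were well above background in the treated non-MG cells. HCLS1 had the largest bound, at least 27.4-fold (levels 0.105 in the MG and 3.19 in the non-MG cells), but on the treated arrays its levels were 3.85 in the MG and 4.77 in the non-MG cells. LRG1, a secreted glycoprotein (at least 7.51-fold), CIB4 (6.38), PRR15L (4.56, over 9 spots), DIRAS3 (4.53), PLIN5 (4.50), MSR1 (3.52) and NPR3 (3.52) were lower in the treated MG than in the treated non-MG cells as well. ZNF350, a zinc-finger repressor, passed background in the non-MG cells alone, with a level of 0.362 there and 0.0263 in the MG cells, a difference of at least 3.11-fold.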

How the data were processed

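Gene expression was measured on 4 one-colour Agilent SurePrint G3 arrays. The authors deposited the scanner output of Feature Extraction 11.5.1.1, whose values are linear background-corrected intensity per spot with no scaling between arrays, and a table of log2 values that they had centred per probe. The labels name RNAiso Plus and the methods an RNeasy kit for the RNA. Here control spots and spots with outlier flags were left out, log2 intensity was reduced by the array's 75th percentile, and spots were averaged per probe. Probes were named through RefSeq accessions (GRCh38.p14), which gave 59.3% of 50594 probes a gene. The ratio of a gene is the mean over its probes well above background on both vehicle arrays. A gene seen on 1 array has a bound, its signal over the other array's lowest signal well above background or its own signal there. Counting was tested on simulated arrays with 2-fold changes and spot error alone. This checks the counting code and not the calls, since variation between cultures, labelling and hybridisation is left out. The members and lists were chosen with earlier results of these data known. The genes named are the 12 highest and 12 lowest with a log2 intensity of 5 or more on the brighter array. Their probes well above background on both arrays all lay on 1 side of 0, and other probes were not held to this. Also named are the 8 largest bounds a side and, per list, up to 5 genes past 1.5-fold and up to 5 within it. Any further gene was picked once its value was known. Alternatives changed the background correction, scaling, filter, probe choice, source table and threshold. A few genes are not reported here. R 4.3.3 with limma 3.58.1 and Python 3.11.15 with pandas 2.3.3 were used.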

Additional observations from a re-analysis of the deposited data

Results flagged for a closer look

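For 6 genes the MG and non-MG cells differed past 1.5-fold in opposite directions with vehicle and after 5-azacytidine. With 1 array per condition these differences were not tested. ANO5 had log2 ratios of -0.82 with vehicle and 1.02 after 5-azacytidine, and ONECUT3 -0.62 and 1.70. PEX26 had -0.68 and 1.07, with its 2 probes at -1.16 and -0.19 with vehicle. SAP25 had -0.81 and 0.66, ZNF697 -0.63 and 0.65, and SNORA20 0.78 and -0.60. SAP25 was the one with bright spots, with vehicle levels of 5.39 in the non-MG and 3.07 in the MG cells, and the spot error of the other 5 genes was from 0.23 to 0.39.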

How the results depend on the processing

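No paired analysis was possible because each condition has 1 array, and for the same reason no array could be left out. A slide block could not be fitted with 1 slide. From 772 higher and 1000 lower genes, the counts became 416 and 267 with normexp correction on the median spot signal (offset 50), 1893 and 460 with centring on the median of all probes, 1680 and 2813 with no filter, and 107 and 183 at 2-fold. The study's filter gave 1507 lower genes. The share of higher genes among calls was 43.6%, compared with 60.9% with normexp and 80.5% with median centring. At 2-fold the members higher were 4 for DNA replication, 9 for histones and 1 for mitosis, and the members lower were 12 for hypoxia, 4 for MAP kinase signalling and 2 for epithelial genes. Median centring gave 26 mitosis genes higher, and 6 MAP kinase and 5 epithelial genes lower, and normexp gave 7 and 7. The medians of these 6 lists kept their sign under every alternative run, in ranges of 0.61 to 0.87 for replication, 0.63 to 0.86 for histones, 0.41 to 0.61 for mitosis, -0.68 to -0.44 for hypoxia, -0.23 to -0.03 for MAP kinase signalling and -0.30 to -0.09 for epithelial genes. Over all lists, 358 of 374 medians kept their sign, and all 295 ratios recomputed for 28 named genes did. Of 27 such genes past 1.5-fold, BEX5, CDH1 and ZEB1 lost the call with normexp and CDH1 with median centring. The log2 ratio moved by over 1.5 times for 16 of them with normexp, 5 with no filter, 2 with the study's filter and 2 with signals raised to the detection limit. Dim spots limit the precision: the SD between spots was 0.59 at log2 intensities from 2 to 3 on the non-MG vehicle array and 0.04 from 10 on.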

Other observations

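The HOXB cluster differed from the other HOX clusters, a group chosen after its values were seen. Of 8 measured HOXB genes, which set position along the body axis, 7 were higher in the MG cells past 1.5-fold. Their median was 1.06, and 5.92% of all genes were higher. HOXB7 passed background in the MG cells alone, at least 1.30-fold higher there. Levels were 1.89 in the non-MG and 8.58 in the MG cells for HOXB8, 1.18 and 3.66 for HOXB4 and 15.8 and 44.3 for HOXB6. HOXB13, at the far end of the cluster, had a ratio of 0.03. None of 9 HOXA and none of 5 HOXC genes passed the threshold in either direction, with medians of 0.16 and 0.05. Of 2 HOXD genes 1 was lower. Groups this small would hold few calls at the shares of all genes, 5.92% higher and 7.67% lower. After 5-azacytidine the HOXB median was 1.20.

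Further groups were also looked at after their values were seen. Of 10 immediate-early genes beyond the MAP kinase list, 6 were lower in the MG cells past 1.5-fold, 2 were within it, IER2 (-0.37) and KLF6 (-0.51), and 2 were on neither array, where 7.67% of all genes were lower. The lower ones include ZFP36 at levels of 28.7 in the non-MG and 9.77 in the MG cells (-1.55), EGR2 at -1.26, NR4A3 at -1.10 and CSRNP1 at -1.03. Of 10 measured repair genes that act at replication forks, 7 were higher and 3 within the threshold, FANCD2 (0.51), MSH6 (0.46) and FANCI (0.36), where 5.92% of all genes were higher. The higher ones include BRIP1 at 1.23, EXO1 at 1.05, XRCC2 at 0.97 and CHEK1 at 0.91. The arrestin-related genes of glucose uptake control, ARRDC4 (-2.39) and ARRDC3 (-1.08), were both lower. Of 558 long noncoding RNA genes, 19 (3.41%) were higher and 79 (14.2%) lower, compared with 730 (6.10%) and 889 (7.43%) of 11968 protein-coding genes. Among 3513 probes with no RefSeq gene here, 152 (4.33%) were higher and 398 (11.3%) lower past 1.5-fold, compared with 6.33% and 7.85% of the 17120 probes with one. Neither comparison was matched for brightness, and 13.7% of genes with a mean log2 intensity below 5 were lower.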
